A study of Mus musculus with 4 samples.

Results

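The genes described here carry pyruvate into the mitochondrion, run the tricarboxylic acid (TCA) cycle and oxidise fatty acids, together with the kinases, the phosphatase and the transcriptional regulators that set how much of each fuel enters. They were chosen by symbol as a list of 49 genes, and 48 of the 49 were in the authors' table, which holds 12693 genes in all; Ppara was not listed in it. RNA sequencing compared brain endothelial cells (brain ECs) of wild-type (WT) mice and Foxq1 conditional knockout (cKO) mice at embryonic day 18, with 2 samples in each group. The question was how the transcripts of brain ECs differ when the forkhead transcription factor FOXQ1 is removed. All 4 samples were of the C57BL/6 strain and no treatment is named in the labels.

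The cKO genotype is FOXQ1fl/fl;Tie2-Cre, in which Cre recombinase under the Tie2 promoter removes the floxed Foxq1 alleles. Tie2-driven Cre is known to act in endothelial cells and also in blood-forming cells and their descendants, so the deletion need not be limited to the endothelium. The labels call the controls WT, whereas the study's methods describe controls as littermates without the Cre transgene, and it is not stated whether the controls carried floxed alleles. The labels give the tissue as brain, and the methods describe cells sorted from the cerebral cortex with an antibody to CD31, an endothelial surface protein, followed by Smart-seq2, which amplifies whole transcripts from small inputs. It is not stated that samples of a group came from separate animals, so p-values measure only the spread between these samples, which may be technical.

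Pyruvate made by glycolysis enters mitochondria through a carrier and is turned either into acetyl-CoA by the pyruvate dehydrogenase complex or into oxaloacetate by pyruvate carboxylase. Acetyl-CoA from pyruvate and from the beta-oxidation of fatty acids is then oxidised in the TCA cycle, and pyruvate dehydrogenase kinases shift the balance towards fat by shutting the complex down. Endothelial cells are known to rely strongly on glycolysis and to use fatty acid oxidation for purposes that include nucleotide synthesis and redox balance.

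The samples held 21466436 and 17901203 reads on listed genes in WT and 15827166 and 16963866 in cKO, and values are normalized counts, that is, reads divided by 1 size factor per sample. Foxq1 itself was at 353 and 297 normalized counts in the WT samples and at 5.44 and 32.6 in the cKO samples. The cKO values were far below the WT values, in the direction of their labels (log2 fold change -4.47, 95% interval -7.01 to -1.92, unadjusted p = 0.00507). Its adjusted p was 0.857 with limma, and over the other settings with all 4 samples it ran from 0.00925 to 0.940. Foxq1 shares 66.1% of its exon bases with A530084C06Rik on the opposite strand in the GRCm38 annotation, so reads of the 2 genes cannot be told apart without a strand setting. Pearson correlations of log2 values across the 12472 genes tested, which are not independent replicates, were 0.842 to 0.859 between WT replicate 1 and each other sample and 0.878 to 0.904 among the other 3, so WT replicate 1 stood somewhat apart.

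Across all genes, no gene passed adjustment in limma, while 271 were higher and 380 lower in cKO at an unadjusted p under 0.05; DESeq2 on the recovered reads called 59 genes at an adjusted p under 0.05 and edgeR called 0. Among the 48 members, which all passed the minimum mean of 10 normalized counts, 1 was higher (Idh3a, a subunit of a TCA cycle dehydrogenase) and 1 was lower (Pcx, pyruvate carboxylase) at an unadjusted p under 0.05. Over all genes tested, 2.17% were called higher and 3.05% lower by the same rule, so the members' counts were close to the background; DESeq2 called 1 member higher and 2 lower by that rule, beside 2.67% and 3.78% of all genes. Both cKO samples lay above both WT samples for 5 members and below them for 12, against 18% of all genes tested in the upward direction and 18% in the downward direction. Those counts correspond to 10.4% and 25.0% of the members. The median log2 fold change of the members was -0.05 (-0.02 with quantile normalization), beside 0.01 over all genes tested, and 21 members had a positive and 27 a negative fold change. With 2 samples against 2, an exact permutation test of a single value cannot go below p = 0.333, two-sided.

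**Figure D1:**
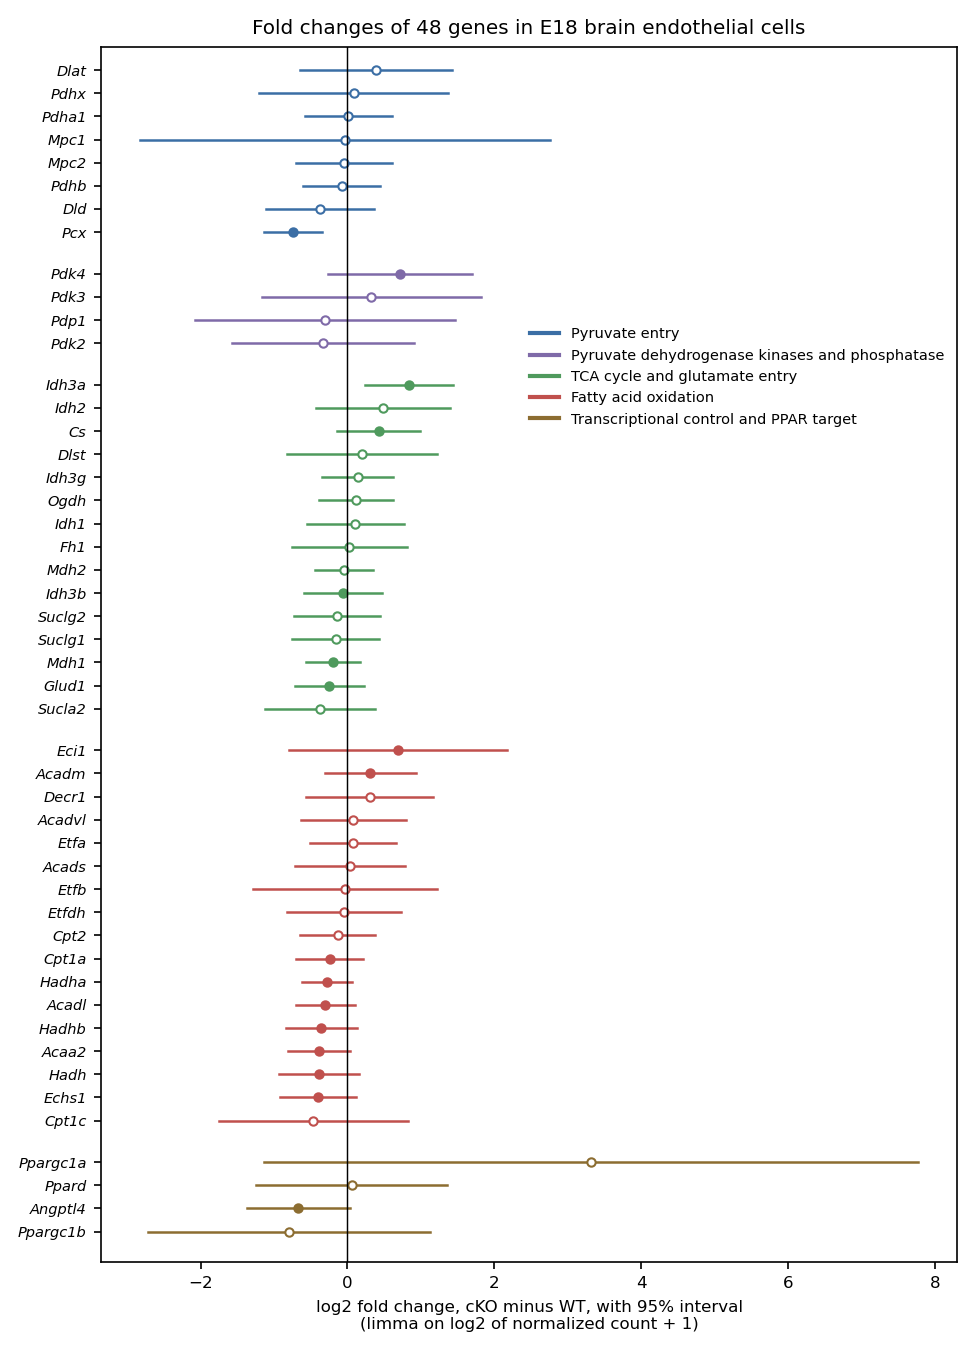
Log2 fold changes (cKO minus WT, limma on log2 of the normalized count plus 1) of the 48 genes, grouped by role, with 95% intervals as lines. Filled points mark genes whose 2 cKO samples both lie above or both lie below the 2 WT samples, and open points mark genes whose groups overlap; the intervals of Pcx (-1.14 to -0.34) and Idh3a (0.24 to 1.43) lie to one side of 0.

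Sorted cells can hold other cell types, and the sums of several marker lists were lower in cKO. The 10 endothelial markers, led by Cldn5, summed to 379206 and 350504 normalized counts in WT and to 303701 and 343134 in cKO. Every one of the 10 was listed, and 5 of them were below both WT samples in both cKO samples and 1 (Cdh5) was above, beside 18% of all genes in each direction. The 8 radial glia and astrocyte markers, led by Slc1a3 over all 4 samples, summed to 20717 and 21176 in WT and 17243 and 17134 in cKO, and the 8 microglia and macrophage markers, led by Csf1r in WT and Cx3cr1 in cKO by group means, to 9581 and 11224 in WT and 7026 and 8104 in cKO. Neuron markers, of which 7 of 8 were listed, summed to 5826 and 5710 in WT and 4113 and 5576 in cKO, with WT replicate 2 and cKO replicate 2 close, and 1 (Map2) was lower in both cKO samples. Of the microglia and macrophage markers 3 were lower (37.5%, beside 18% of all genes) and 0 higher in both cKO samples, and 5 overlapped. Log2 fold changes in that list were negative for 5 and positive for 3 (Ptprc, Tmem119 and Aif1). For these 4 lists both cKO sums were below both WT sums. The total of normalized counts over all genes was also lower in both cKO samples than in both WT samples. The list sums were not scaled to that total, so they do not by themselves show a lower share of any cell type. In bulk samples such as these, fewer cells of a type and less RNA per cell cannot be told apart. The 5 listed pericyte and smooth muscle markers, led by Rgs5, had the largest sums after the endothelial ones. They summed to 134914 and 131249 in WT and 136439 and 127303 in cKO, and the groups overlapped for all 5. The values of the members can therefore include RNA of other cell types.

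Pyruvate enters the matrix through a carrier built from MPC1 and MPC2. Mpc2 was at 1234 and 1087 normalized counts in WT and 1045 and 1205 in cKO, while Mpc1 was at 32.9 and 32.9 in WT and 76.2 and 13.2 in cKO. The groups overlapped for both genes, and cKO replicate 1 was the highest and cKO replicate 2 the lowest sample for Mpc1 (log2 fold changes -0.04 for Mpc2 and -0.03 for Mpc1, 95% interval -2.82 to 2.76 for Mpc1). Per kilobase of transcript, the level of Mpc2 was 35.1 and 30.9 times that of Mpc1 in WT and 12.8 and 85.2 times in cKO. Mpc1 counts are uncertain: 330 bases of its 958-base transcript match the processed pseudogene Mpc1-ps at 99.7% identity, and 23.1% of its exon bases overlap 4930506C21Rik on the opposite strand.

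The pyruvate dehydrogenase complex, which converts pyruvate to acetyl-CoA, showed no call. Pdha1, the catalytic alpha subunit, was at 1367 and 1574 normalized counts in WT and 1387 and 1581 in cKO, with a log2 fold change of 0.01 and a 95% interval of -0.58 to 0.61; 16.1% of its exon bases overlap Map3k15 on the opposite strand. WT and cKO samples alternated in order, so the 2 groups covered almost the same range. Of the other subunits, Pdhb had a log2 fold change of -0.08, Dlat of 0.39, Dld of -0.38 and Pdhx of 0.08, and the groups overlapped for all 4. For Dlat, the acetyltransferase core, 1 sample set the value: WT replicate 1 was at 736 normalized counts and the other samples between 1359 and 1688, and without WT replicate 2 its log2 fold change was 0.98 with an unadjusted p of 0.0233, whereas without WT replicate 1 it was -0.21. Dld, the dehydrogenase subunit that other complexes share, was at 1648 in cKO replicate 2 and between 2700 and 2960 in the other samples; without cKO replicate 1 its log2 fold change was -0.78 (unadjusted p = 0.0448), and without cKO replicate 2 it was 0.02. Pdhb counts may include reads of the processed pseudogene Gm6123, which matches 71.3% of its transcript at 97.0% identity.

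Pcx encodes the enzyme that carboxylates pyruvate to oxaloacetate and so refills the TCA cycle. It was at 10204 and 8358 normalized counts in the WT samples and at 5251 and 5817 in the cKO samples. Both cKO samples were below both WT samples, and the gap between the groups exceeded the spread within either (59.6% of the WT mean, log2 fold change -0.74, 95% interval -1.14 to -0.34, unadjusted p = 0.00393). The adjusted p of Pcx was 0.857 with limma and 0.0433 with DESeq2 on the recovered reads, and it ran from 0.0433 to 0.940 over the settings with all 4 samples. Without the trend in the moderation of variances its unadjusted p was 0.0692. Leaving out each sample in turn gave log2 fold changes from -0.88 to -0.60 with unadjusted p-values from 0.00323 to 0.0315. Of the 8 pyruvate entry genes, 0 were higher and 1 was lower at an unadjusted p under 0.05, 0 were higher and 1 was lower in both cKO samples (12.5%, beside 18% of all genes), and the median log2 fold change was -0.04 (-0.01 with quantile normalization); of all genes tested, 3.05% were called lower.

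In brain, pyruvate carboxylase is known mainly from astrocytes, and the summed level of radial glia and astrocyte markers was lower in cKO, although single markers differed in direction. Gfap, an intermediate filament gene of astrocytes, was at 3073 and 2419.6 normalized counts in WT and 1081 and 1329 in cKO (log2 fold change -1.19, unadjusted p = 0.00310). Of the 8 markers in that list, 5 were lower in both cKO samples than in both WT samples, beside 18% of all genes (Gfap, Slc1a3, Aldoc, Hes5 and Pax6), Aqp4 was higher in both cKO samples, and Fabp7 and Sox2 overlapped. Only Gfap had an unadjusted p under 0.05. The summed level of the list was 20717 and 21176 in WT and 17243 and 17134 in cKO, Slc1a3 was the most abundant gene in WT and Fabp7 in cKO by group means, and all 8 markers were listed; their part in the result for Pcx was not tested.

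Pyruvate dehydrogenase kinases phosphorylate the complex and inactivate it, and pyruvate dehydrogenase phosphatase reverses this. Pdk4, the kinase known to be induced by fasting and by PPAR factors, was at 390.1 and 613 normalized counts in WT and 705 and 921 in cKO. The cKO samples were the higher pair, yet WT replicate 2 and cKO replicate 1 were close to each other (log2 fold change 0.72, 95% interval -0.26 to 1.70, unadjusted p = 0.123), and the log2 fold change ran from 0.39 without WT replicate 1 to 1.04 without WT replicate 2. Pdk2 was at 389 and 547 in WT and 269 and 502 in cKO. Pdk3 was at 286 and 298 in WT and 597 and 225 in cKO. The Pdk2 and Pdk3 groups overlapped, and for Pdk3 cKO replicate 1 was the highest and cKO replicate 2 the lowest sample (log2 fold changes -0.33 and 0.33). Pdp1, the phosphatase, was at 207 and 465 in WT and 151 and 415 in cKO, with a log2 fold change of -0.31 and a 95% interval of -2.08 to 1.47. In both groups replicate 2 was the higher sample for Pdp1, and the spread within each group was larger than the difference between them. Of these 4 genes, 0 were called in either direction, beside 2.17% (higher) and 3.05% (lower) of all genes at an unadjusted p under 0.05. The median log2 fold change of the 4 genes was 0.01, a sign that turned to -0.03 with quantile normalization (0.12 with DESeq2).

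The make-up of the kinase family can be compared per kilobase of transcript. Pdk4 made up 18.8% and 25.9% of the summed level of Pdk1, Pdk2, Pdk3 and Pdk4 in the WT samples and 30.9% and 37.5% in the cKO samples. Both cKO shares were above both WT shares. Pdk1, which belongs to the list of other pathway genes, made up 29.5% and 17.4% in WT and 7.87% and 15.6% in cKO, so both cKO shares were below both WT shares. The level of Pdk4 per kilobase was 0.646 and 0.722 times that of Pdk2 in WT and 1.69 and 1.18 times in cKO. These shares and ratios were chosen after the values were seen and carry no test.

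The TCA cycle opens with citrate synthase, which joins acetyl-CoA to oxaloacetate. Its gene Cs was at 1811 and 2321 normalized counts in WT and 2505 and 3032 in cKO. The 2 cKO samples were the highest of the 4, with a distance between cKO replicate 1 and WT replicate 2 that was smaller than the spread within either group (log2 fold change 0.43, 95% interval -0.14 to 0.99, unadjusted p = 0.115).

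NAD-dependent isocitrate dehydrogenase, a rate-controlling step of the cycle, is built from the products of Idh3a, Idh3b and Idh3g. The catalytic alpha subunit gene Idh3a was at 1036 and 1082 normalized counts in WT and 2040.1 and 1753 in cKO. The 2 cKO values were well above the 2 WT values, which were close to each other (179% of the WT mean, log2 fold change 0.84, 95% interval 0.24 to 1.43, unadjusted p = 0.0138, adjusted p with limma = 0.857). Over the settings with all 4 samples the adjusted p ran from 0.366 to 0.940, and without cKO replicate 1 the log2 fold change was 0.73 with an unadjusted p of 0.104. The partner subunits had smaller fold changes. Idh3b was at 1804 and 1766 in WT and 1699 and 1718 in cKO, slightly lower in both cKO samples (log2 fold change -0.06). Idh3g was at 2818 and 3510.2 in WT and 3278 and 3650.0 in cKO, with overlapping groups (log2 fold change 0.14). Per kilobase, the level of Idh3a was 0.386 and 0.412 times that of Idh3b in WT and 0.807 and 0.686 times in cKO, and 0.204 and 0.171 times that of Idh3g in WT and 0.345 and 0.266 times in cKO. For both ratios the 2 cKO samples were above the 2 WT samples; the ratios were chosen after the values were seen, and the difference between subunits was not tested.

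NADP-dependent isocitrate dehydrogenases make NADPH rather than NADH, in the cytosol (Idh1) and in mitochondria (Idh2). Idh2 was at 522 and 843 normalized counts in WT and 836 and 1027 in cKO. WT replicate 1 was the lowest sample, while WT replicate 2 was level with cKO replicate 1, so the groups overlapped (log2 fold change 0.48, 95% interval -0.43 to 1.39). Idh1 had a log2 fold change of 0.11, with overlapping groups.

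Downstream, the 2-oxoglutarate dehydrogenase complex makes succinyl-CoA. Ogdh, its first subunit, was at 3121 and 2436 normalized counts in WT and 3029 and 2950.1 in cKO. Both cKO samples lay between the 2 WT samples (log2 fold change 0.12, 95% interval -0.39 to 0.62). Dlst, the core subunit, was at 1998 and 865 in WT and 1486 and 1528 in cKO, with both cKO samples between the WT samples; its log2 fold change was 0.80 without WT replicate 1 (unadjusted p = 0.0422) and -0.41 without WT replicate 2.

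Succinyl-CoA synthetase pairs the alpha subunit of Suclg1 with a beta subunit from Sucla2 or Suclg2. Their log2 fold changes were -0.16 for Suclg1, -0.38 for Sucla2 and -0.14 for Suclg2, all with overlapping groups. Sucla2 was at 3526 normalized counts in WT replicate 1 and between 1936 and 2159 in the other 3 samples, so its value rested on 1 sample: it was -0.79 without WT replicate 2 (unadjusted p = 0.0201) and 0.03 without WT replicate 1. Suclg2 counts may include reads of the processed pseudogene Gm15163, which matches 38.7% of its transcript at 98.9% identity.

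Fumarase (Fh1) and malate dehydrogenases close the cycle. Fh1 had a log2 fold change of 0.03, and both cKO samples lay between the 2 WT samples. Mdh2, the mitochondrial malate dehydrogenase, had a log2 fold change of -0.05 with overlapping groups. Mdh1, the cytosolic form that works in the malate-aspartate shuttle, was at 5275 and 5550.0 normalized counts in WT and 4676 and 4745 in cKO, lower in both cKO samples (log2 fold change -0.20, 95% interval -0.57 to 0.17).

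Glutamate enters the cycle as 2-oxoglutarate through glutamate dehydrogenase. Its gene Glud1 was at 3038 and 2835 normalized counts in WT and 2612 and 2334 in cKO. The cKO samples were the lower pair, by a gap about as large as the spread within a group (log2 fold change -0.25, 95% interval -0.72 to 0.22, unadjusted p = 0.242). A stretch of 19.4% of the Glud1 transcript matches the processed pseudogene Glud-ps at 97.6% identity. Of the 15 genes for the TCA cycle and glutamate entry, 1 was higher at an unadjusted p under 0.05 and 0 were lower, beside 2.17% and 3.05% of all genes; 2 were higher and 3 lower in both cKO samples than in both WT samples (13.3% and 20.0%, near the 18% of all genes in each direction), and the median log2 fold change was 0.03, a sign that turned to -0.05 with DESeq2 (0.10 with quantile normalization).

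**Figure D2:**
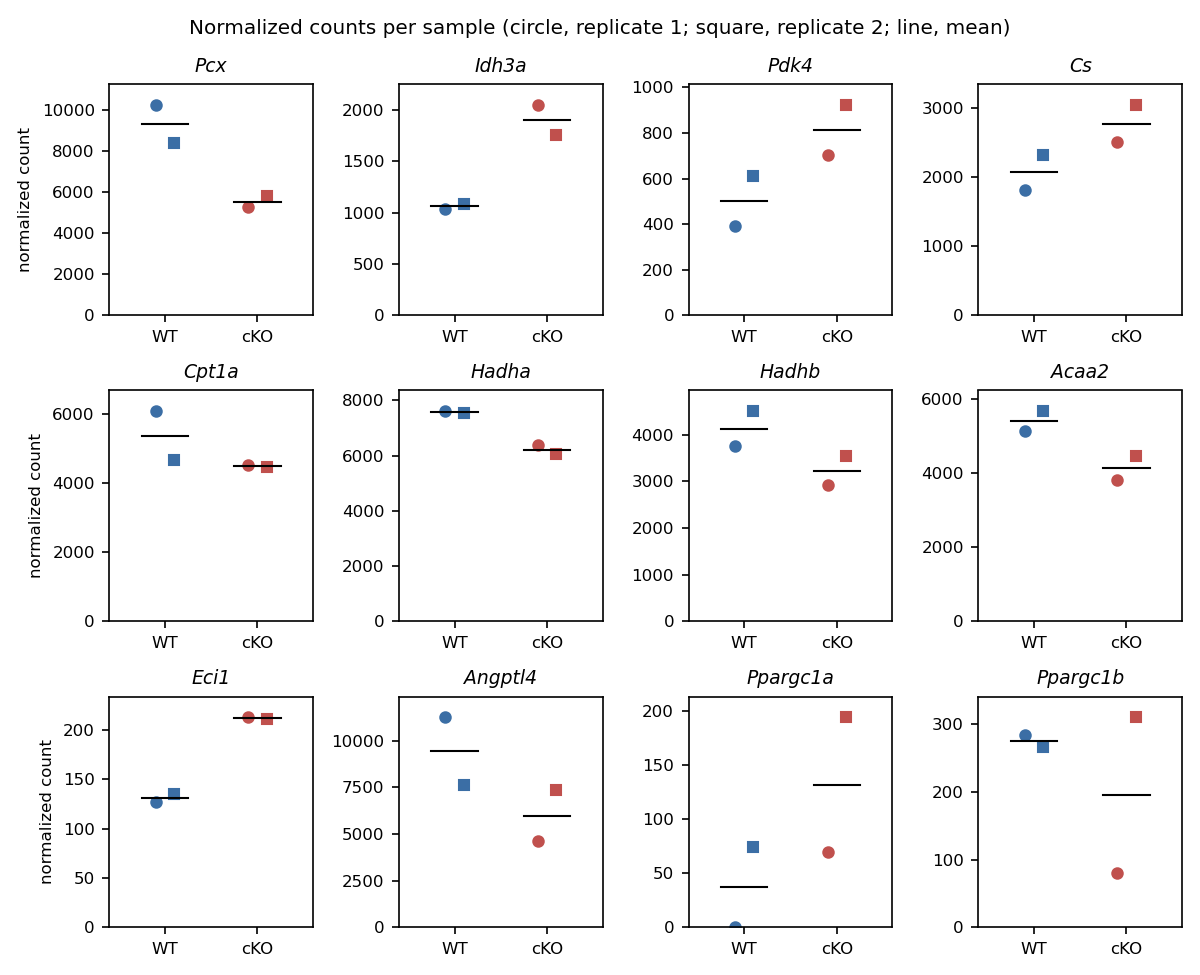
Normalized counts of 12 genes in each sample, with WT in blue and cKO in red, replicate 1 as circles, replicate 2 as squares and the group mean as a line; every axis starts at 0. Pcx, Cpt1a, Hadha, Hadhb, Acaa2 and Angptl4 have both cKO samples below both WT samples. Idh3a, Pdk4, Cs and Eci1 have both above, and Ppargc1a and Ppargc1b overlap.

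Long-chain fatty acids cross into mitochondria as carnitine esters, made by carnitine palmitoyltransferase 1 and turned back into acyl-CoA by carnitine palmitoyltransferase 2. Cpt1a, which encodes the rate-limiting form of most tissues, was at 6060.1 and 4658 normalized counts in WT and 4509 and 4471 in cKO. Both cKO samples were below both WT samples, but WT replicate 2 was nearly level with them and WT replicate 1 carried most of the difference (log2 fold change -0.24, 95% interval -0.70 to 0.21, unadjusted p = 0.240). Cpt2 was at 2138 and 2278 in WT and 2146 and 1885 in cKO, with WT replicate 1 and cKO replicate 1 almost equal (log2 fold change -0.13). Cpt1c, a form known mainly from neurons, was at 433 and 1004 in WT and 388 and 589 in cKO. The Cpt1c groups overlapped, and WT replicate 2 was the highest sample (log2 fold change -0.46, 95% interval -1.75 to 0.82).

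Each round of beta-oxidation begins with an acyl-CoA dehydrogenase, of which different members handle different chain lengths. Acadl, for long chains, was at 4607 and 4483 normalized counts in WT and 3867 and 3525 in cKO, lower in both cKO samples (log2 fold change -0.30, unadjusted p = 0.119). Acadm, for medium chains, was at 1284 and 1464 in WT and 1921 and 1506 in cKO, with both cKO samples the higher ones by a narrow margin (log2 fold change 0.31, unadjusted p = 0.269; 0.14 without cKO replicate 1). Acadvl, for very long chains, and Acads, for short chains, had log2 fold changes of 0.08 and 0.04 with overlapping groups. Acadvl shares 42.9% of its exon bases with Dvl2 on the opposite strand, so its counts are uncertain without a strand setting.

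The later steps of the spiral hydrate, oxidise and cleave the chain. Hadha and Hadhb encode the alpha and beta subunits of the mitochondrial trifunctional protein, which carries out these steps on long chains. Hadha was at 7599 and 7544 normalized counts in WT and 6400.2 and 6046 in cKO. Hadhb was at 3761 and 4498 in WT and 2916 and 3541 in cKO. For both subunits the 2 cKO samples were below the 2 WT samples, with a tighter spread for Hadha (log2 fold change -0.28, 95% interval -0.62 to 0.06, unadjusted p = 0.0869) than for Hadhb (log2 fold change -0.36, unadjusted p = 0.123). The level of Hadha per kilobase was 1.03 and 0.855 times that of Hadhb in WT and 1.12 and 0.870 times in cKO, with overlapping groups. Hadhb counts may include reads of the processed pseudogene Gm13910, which matches 69.7% of its transcript at 99.8% identity.

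Shorter chains are hydrated by the product of Echs1, oxidised by that of Hadh and cleaved by that of Acaa2, the thiolase that releases acetyl-CoA. Echs1 was at 2512 and 2290.0 normalized counts in WT and 1929 and 1708 in cKO. Hadh was at 3261 and 2557 in WT and 2379.8 and 2039.7 in cKO. Acaa2 was at 5152 and 5669 in WT and 3810.3 and 4473 in cKO. Each was lower in both cKO samples than in both WT samples, and none had an unadjusted p under 0.05 (log2 fold changes -0.40, -0.39 and -0.39, unadjusted p-values 0.106, 0.130 and 0.0635); without WT replicate 1 the value of Hadh was -0.21. Per-sample values of Acadl, Acadm, Hadha, Hadhb, Hadh and Acaa2 are given because their groups did not overlap, a choice made after the values were seen.

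Unsaturated fatty acids need auxiliary enzymes, among them the isomerase of Eci1 and the reductase of Decr1. Eci1 was at 127 and 135 normalized counts in WT and 212 and 211 in cKO, the cKO samples being nearly equal to each other and above both WT samples. Eci1 had few reads, 151 and 135 in WT and 195 and 207 in cKO. The moderated error was large with the trend in the variances (log2 fold change 0.69, 95% interval -0.80 to 2.17, unadjusted p = 0.301). Without that trend the unadjusted p in limma was 0.0679. Decr1 had a log2 fold change of 0.30, and only cKO replicate 2 stood above the other samples. Electrons from the dehydrogenases pass to the electron transfer flavoprotein (Etfa, Etfb) and its oxidoreductase (Etfdh), whose log2 fold changes were 0.08, -0.03 and -0.05 with overlapping groups. The level of Etfa per kilobase was 6.49 and 4.32 times that of Etfb in WT and 6.11 and 5.32 times in cKO; Etfb shares 53.0% of its exon bases with Gm45233 on the same strand, so its counts are uncertain. A stretch of 17.5% of the Etfa transcript matches the processed pseudogene Gm15289 at 95.1% identity.

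At an unadjusted p under 0.05, limma called 2.17% of all genes tested higher and 3.05% lower. Of the 17 fatty acid oxidation genes, 0 were called in either direction by that rule. Both cKO samples were below both WT samples for 7 of them (Cpt1a, Acadl, Hadh, Hadha, Hadhb, Echs1 and Acaa2) and above for 2 (Acadm and Eci1), which is 41.2% and 11.8% of the list beside 18% of all genes in each direction. Among the 25 other fatty acid oxidation genes described below, 5 were lower and 6 higher in both cKO samples than in both WT samples (20.0% and 24.0%). The median log2 fold change was -0.06 for those 25 genes and -0.13 for the 17 genes, beside 0.01 over all genes. For the 17 genes it was -0.08 with quantile normalization and -0.13 with TMM scaling. Of the 10 endothelial markers, 5 were lower in both cKO samples, 1 was higher (Cdh5) and 4 overlapped, only Flt1 having an unadjusted p under 0.05, with a median of -0.18 (-0.08 with quantile normalization), sums of 379206 and 350504 in WT and 303701 and 343134 in cKO, Cldn5 as the most abundant gene and no marker missing from the table; their part in the result was not tested.

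The balance between glucose and fat is set in part by the PPAR nuclear receptors and their PGC-1 coactivators. Ppard was at 429 and 317 normalized counts in WT and 272 and 541 in cKO, and both WT samples lay between the 2 cKO samples (log2 fold change 0.06, 95% interval -1.24 to 1.36). Ppargc1a, encoding PGC-1 alpha, was at 0.843 and 74.8 in WT and 69.7 and 194 in cKO, from 1 and 75 reads in WT and 64 and 191 in cKO. Its log2 fold change of 3.31 was the largest of the members but had a 95% interval of -1.14 to 7.77 (unadjusted p = 0.119), and WT replicate 2 was above cKO replicate 1. The single read in WT replicate 1 set the size of this value: the log2 fold change was 0.63 without that sample and 5.99 without WT replicate 2 (unadjusted p = 0.00264), and with the replicate block the unadjusted p was 0.0420. With all 4 samples the log2 fold change was 1.81 in both DESeq2 and edgeR and 2.50 with a pseudocount of 5. Ppargc1b, encoding PGC-1 beta, was at 284 and 266 in WT and 80.6 and 310.3 in cKO. Here cKO replicate 1 was low and cKO replicate 2 was the highest of the 4 samples (log2 fold change -0.79, 95% interval -2.71 to 1.13), and without cKO replicate 1 the log2 fold change was 0.17.

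Angptl4, a known PPAR target whose secreted product inhibits lipoprotein lipase, was at 11235 and 7624 normalized counts in WT and 4598 and 7380.4 in cKO. Angptl4 was lower in both cKO samples than in both WT samples, although WT replicate 2 and cKO replicate 2 differed little (log2 fold change -0.67, 95% interval -1.37 to 0.03, unadjusted p = 0.0581). The unadjusted p was 0.0493 with a minimum mean of 50, 0.0136 with DESeq2, 0.0175 without WT replicate 2 and 0.0216 without cKO replicate 2, but 0.190 without a trend in the variances. Without WT replicate 1 or cKO replicate 1 the log2 fold change shrank to -0.39 or -0.33, with an unadjusted p of 0.239 or 0.313. Other known PPAR targets took different directions: Pdk4 was higher in both cKO samples, with a log2 fold change of 0.72, and Cpt1a was lower in both (-0.24), each with an unadjusted p above 0.05. Of the 4 listed genes for transcriptional control and its target, limma called 0 in either direction at an unadjusted p under 0.05. Of all genes, limma called 2.17% higher and 3.05% lower. DESeq2 called 0 of the 4 higher and 1 lower (Angptl4), beside 2.67% and 3.78% of all genes. The median log2 fold change of the 4 genes was -0.30 (-0.18 with DESeq2).

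Levels differed widely among the members. Per kilobase of transcript, the WT mean was highest for Mdh2, at 4059 normalized counts per kilobase, and next for Acaa2, at 3569, and it was lowest for Ppargc1a, at 5.85, and Mpc1, at 34.3. Among genes for fuel entry, Pcx was at 2285 per kilobase in WT and 1363 in cKO, Pdha1 at 516 and 521.0, and Cpt1a at 1241 and 1040.1. The regulators Ppard, Ppargc1a and Ppargc1b were at 114, 5.85 and 75.2 per kilobase in WT and 124, 20.4 and 53.5 in cKO. Transcript lengths are those of the principal transcripts in a GRCm38 annotation, which may differ from the one the authors used.

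**Figure D3:**
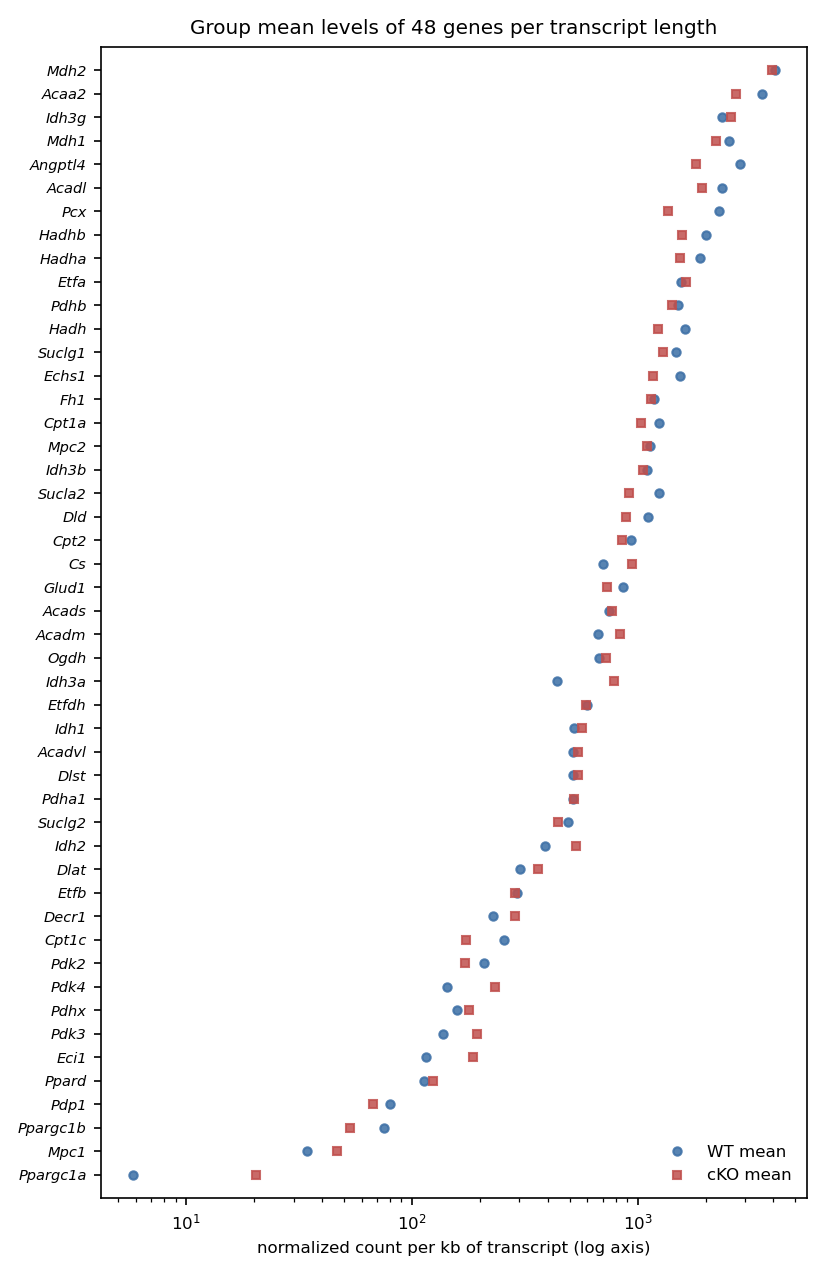
Group means of the 48 genes as normalized counts per kilobase of transcript on a log axis, WT as blue circles and cKO as red squares, ordered by the mean of both groups. Mdh2 is the most abundant (WT 4059, cKO 3929.7) and Ppargc1a the least (WT 5.85, cKO 20.4).

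Further genes of these pathways were taken from lists. At an unadjusted p under 0.05, limma called 2.17% of all genes tested higher and 3.05% lower. For DESeq2 these shares were 2.67% and 3.78%. Among 19 listed genes for other steps of pyruvate and TCA cycle metabolism, limma called 0 higher and 1 lower (Me1) by that rule. DESeq2 called 0 higher and 2 lower (Aco1 and Me1). Me1 encodes malic enzyme, which makes pyruvate and NADPH in the cytosol. Its level was 50.6 and 388 normalized counts in WT and 17.4 and 9.16 in cKO (log2 fold change -3.37, unadjusted p = 0.0329). Me1 was low in both cKO samples, and the 2 WT samples differed widely; its unadjusted p was 0.0604 with a minimum mean of 50 and missed the threshold in 3 of the 4 fits without a sample, at 0.178 without WT replicate 2, 0.0731 without cKO replicate 1 and 0.131 without cKO replicate 2. Among 12 genes for glutamine use and the malate-aspartate shuttle, 0 were higher and 1 was lower: the glutamine transporter Slc1a5 was at 1425 and 1139.5 in WT and 667 and 689.7 in cKO, clearly lower in both cKO samples (log2 fold change -0.91, unadjusted p = 0.0219). Slc1a5 missed that threshold in 3 of the 4 fits without a sample, at 0.0912 without WT replicate 1, 0.0873 without cKO replicate 1 and 0.0774 without cKO replicate 2. The largest positive log2 fold change here was that of Slc25a13, at 1.86 (1.29 with DESeq2), with overlapping groups.

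Among 25 other fatty acid oxidation genes, 1 was higher and 0 were lower at an unadjusted p under 0.05. Of all genes, 2.17% were called higher and 3.05% lower. The peroxisomal thiolase Acaa1b was at 13.5 and 2.99 normalized counts in WT and 57.7 and 42.7 in cKO, a low count that was higher in both cKO samples (log2 fold change 2.74, unadjusted p = 0.0493), and its unadjusted p was 0.0555 with a pseudocount of 0.1, 0.0910 with quantile normalization, 0.0578 with the replicate block and 0.172 with DESeq2. Without WT replicate 2, cKO replicate 1 or cKO replicate 2 the unadjusted p of Acaa1b was 0.158, 0.203 or 0.142. Acad12 had the most negative limma value, -1.11, with overlapping groups (-0.41 with DESeq2, where other genes of the list were lower). Among 19 genes for fatty acid uptake, binding and activation, 0 were higher and 1 was lower, whereas DESeq2 called 2 lower (Gpihbp1 and Lipe). Gpihbp1, which carries lipoprotein lipase across the capillary endothelium, was at 362 and 212 in WT and 49.0 and 42.7 in cKO. It was far lower in both cKO samples than in either WT sample (16.0% of the WT mean, log2 fold change -2.57, 95% interval -4.34 to -0.80, unadjusted p = 0.0118), and the unadjusted p was 0.0525 without WT replicate 1. Lpl, the lipase itself, had overlapping groups and no settled direction (log2 fold change 0.09 with limma, -0.09 with DESeq2). Acss2 had the largest positive value of the list, 3.03 (1.27 with DESeq2), and was at 3.37 and 196 in WT and 265 and 217 in cKO, higher in both cKO samples and with WT replicate 1 near 0.

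Of 21 PPAR partners and further targets, limma called 0 in either direction at an unadjusted p under 0.05, and DESeq2 called 2 lower (Pprc1 and Txnip). The extremes of that list were Nrf1, with a log2 fold change of 0.74, and Sirt3, with -1.65. Over the 96 listed genes of these 5 lists, 1 was higher and 3 were lower at an unadjusted p under 0.05 in limma and in edgeR, whereas in DESeq2 0 were higher and 7 lower. Both cKO samples lay above both WT samples for 11 and below them for 23, or 11.5% and 24.0%, beside 18% of all genes tested in each direction; of all genes 2.17% were called higher and 3.05% lower by limma and 2.67% and 3.78% by DESeq2.

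Promoter sequences, 250 bases before to 50 after the transcription start, were matched by symbol in RefSeq (GRCm38.p6) for 42 of the 48 members, giving 51 promoters. The letters GTTTC were found on either strand in 18 of the 51 (35.3%), beside 45.0% of all 32851 promoters of the same length. TGTTTA, a core of forkhead motifs, was found in 4 (7.84%), beside 13.4%. The 2 motifs share the letters GTTT but cannot match at the same place on 1 strand. A match describes letters only, and these shares carry no test. Genes with several starts count several times. Ogdh has several promoters, some overlapping almost entirely, and most of them hold GTTTC.

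The Hadha and Hadhb promoters are shown for 2 reasons. Both cKO samples were below both WT samples for each gene, although neither had an unadjusted p under 0.05 and a joint change was not tested. The 2 genes also lie head to head, their starts 273 bases apart on opposite strands. Their windows share the 228 bases of chr5:30155003-30155230 in GRCm38.p6, printed on the plus strand, which hold neither motif.
Hadha and Hadhb shared stretch: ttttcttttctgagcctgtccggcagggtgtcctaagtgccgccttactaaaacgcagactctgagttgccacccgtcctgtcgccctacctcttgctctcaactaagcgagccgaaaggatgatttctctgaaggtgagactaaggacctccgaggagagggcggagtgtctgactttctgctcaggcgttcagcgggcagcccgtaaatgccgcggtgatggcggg

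Both RefSeq promoters of Pcx, the member with the smallest unadjusted p, are shown on the plus strand, at chr19:4510222-4510521 and chr19:4594069-4594368 in GRCm38.p6. Neither holds GTTTC or TGTTTA within these windows.
Pcx promoter 1: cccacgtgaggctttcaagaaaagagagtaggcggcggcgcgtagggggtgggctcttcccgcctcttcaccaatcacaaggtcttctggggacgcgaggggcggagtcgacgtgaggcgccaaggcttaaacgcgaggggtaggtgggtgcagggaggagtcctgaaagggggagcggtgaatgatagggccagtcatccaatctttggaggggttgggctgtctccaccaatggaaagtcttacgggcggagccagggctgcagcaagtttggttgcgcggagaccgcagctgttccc
Pcx promoter 2: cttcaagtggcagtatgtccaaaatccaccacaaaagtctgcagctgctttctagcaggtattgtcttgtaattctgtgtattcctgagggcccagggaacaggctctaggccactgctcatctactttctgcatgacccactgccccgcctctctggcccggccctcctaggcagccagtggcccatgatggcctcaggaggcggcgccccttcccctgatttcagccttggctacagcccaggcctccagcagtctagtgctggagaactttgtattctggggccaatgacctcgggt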

How the data were processed

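The authors deposited 1 table of normalized signal per gene for 4 samples, and their processing notes name Bowtie2 2.2.3, TopHat2 2.0.12, HTSeq 0.6.0 and the build mm9 without roles; annotation, strand setting and low-count filter are not given in the sources used here. Repeated lines were reduced to 12693 symbols. The deposited signal is reads divided by a size factor per sample: 100% of values in each sample were whole multiples of 1 step within 0.001 reads. The design assumed normalized values or counts, and kept limma as the main test. limma 3.58.1 (lmFit, eBayes with a trend, R 4.3.3) was fitted to log2(value + 1) for the 12472 genes whose mean was 10 or more, two-sided, with Benjamini-Hochberg adjustment over all; fold changes are differences of mean logs on that scale, which for low genes can be far from the log ratio of the means. DESeq2 1.42.0 (59 genes at an adjusted p under 0.05) and edgeR 4.0.16 (quasi-likelihood, 0 genes) were run on the recovered reads. The fits were tested on simulated data, and the outcome is not reported here. Members and lists were chosen with earlier results of these data known. After the fits 2 genes, taken off the lists for a reason other than their values, are not reported here, and list totals leave them out. Named genes were the members with an unadjusted p under 0.05, the 5 largest changes each way, a fixed set of entry points and regulators and, of other lists, called genes and the largest change each way. Lengths, overlaps and copies (blastn 2.17.0, at least 95% identity over 200 bases) came from GENCODE M21 (GRCm38), which held 12678 of 12701 identifiers and all 48 members. Python 3.11.15, pandas 2.3.3 and matplotlib 3.10.9 made tables and figures.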

Additional observations from a re-analysis of the deposited data

How the results depend on the processing

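Of the fits with all 4 samples, 469 of the members' results kept their direction and their side of an unadjusted p of 0.05, 3 crossed below it, 1 crossed above it and 6 changed sign. The changes of sign were Mpc1 with a pseudocount of 5 (0.022), with DESeq2 (0.44) and with edgeR (0.44), Mdh2 with quantile normalization (0.043), and Fh1 with DESeq2 (-0.049) and edgeR (-0.046), all log2 fold changes of overlapping groups; the cause was not tested. Members lower at an unadjusted p under 0.05 numbered 2 with a minimum mean of 50, 0 without a trend in the variances and 2 with DESeq2, against 1. DESeq2 called 59 genes at an adjusted p under 0.05 (31 higher, 28 lower), against 0 in limma and edgeR.

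Replicate numbers are shared between the groups. With them as a replicate block, members higher at an unadjusted p under 0.05 numbered 2 instead of 1, through Ppargc1a; among the members no other call changed, and 0 genes passed adjustment. Deviations of same-numbered samples correlated at 0.0325 over 2 numbers. With so few numbers this value cannot decide whether same-numbered samples shared a litter, day or batch, and the labels do not say.

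Leaving out each sample in turn leaves 1 sample in a group, assumed to vary like the other group. Genes with an unadjusted p under 0.05 then ranged from 276 (without cKO replicate 1) to 1569 (without WT replicate 2), against 651, members higher from 0 to 3, members lower from 1 to 3, and the median log2 fold change of the members from -0.093 to -0.015; 0 genes passed adjustment in limma. Log2 fold changes of 27 members changed sign in at least 1 of these fits and ranged as follows: Mpc2 -0.15 to 0.058, Pdha1 -0.088 to 0.12, Dlat -0.21 to 0.98, Idh3g -0.021 to 0.30, Suclg2 -0.29 to 0.0012, Sucla2 -0.79 to 0.032, Mdh2 -0.14 to 0.046, Etfdh -0.39 to 0.29, Pdhb -0.22 to 0.071, Pdhx -0.46 to 0.63, Pdp1 -1.03 to 0.42, Ogdh -0.062 to 0.30, Dlst -0.41 to 0.80, Suclg1 -0.40 to 0.078, Fh1 -0.44 to 0.49, Cpt1c -1.07 to 0.14, Acads -0.25 to 0.32, Acadvl -0.098 to 0.26, Etfa -0.14 to 0.29, Etfb -0.11 to 0.052, Ppard -0.44 to 0.55, Pdk2 -0.78 to 0.12, Pdk3 -0.38 to 1.03, Idh1 -0.085 to 0.30, Ppargc1b -1.76 to 0.17, Mpc1 -1.25 to 1.19 and Dld -0.78 to 0.023. Of the members that kept their sign, these moved by more than 1.5 times: Pdk4 0.39 to 1.04, Cs 0.25 to 0.61, Idh2 0.14 to 0.83, Cpt1a -0.43 to -0.053, Cpt2 -0.23 to -0.040, Acadm 0.14 to 0.49, Hadh -0.57 to -0.21, Hadhb -0.50 to -0.22, Decr1 0.0089 to 0.60, Ppargc1a 0.63 to 5.99 and Angptl4 -1.01 to -0.33.

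The depth of 15827166 to 21466436 reads limits genes such as Ppargc1a and Mpc1, which had 1 to 191 and 13 to 70 reads per sample. Libraries without molecular identifiers do not count molecules, so low counts carry more error than counting alone, and every listed gene had at least 1 read in each sample, so complete losses cannot be seen.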

Other observations

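The other marker lists gave these sums of normalized counts. Pericyte and smooth muscle markers, whose sums are given above, came without Acta2, Tagln and Myh11. Neuron markers, whose sums are given above, were led by Map2 in both group means and came without Gad1. Oligodendrocyte precursor markers, led by Olig1 and without Olig2 and Sox10, summed to 2476 and 1989 in WT and 1323 and 3182 in cKO. Erythroid markers, led by Hba-a1, summed to 20673 and 15683 in WT and 15841 and 20480 in cKO. Fibroblast markers, led by Col1a2 and without Dcn and Lum, summed to 2375 and 4595 in WT and 4160 and 2139 in cKO. Of the microglia and macrophage markers, Csf1r was at 3365 and 2579 in WT and 1732 and 1587 in cKO (log2 fold change -0.83, unadjusted p = 0.0109). In that list 5 markers had a negative and 3 a positive log2 fold change (Ptprc 2.38, Tmem119 1.32 and Aif1 0.06). The groups overlapped for these 3. Of the endothelial markers, Flt1 was at 15578 and 10849 in WT and 9582 and 9017 in cKO (log2 fold change -0.48, unadjusted p = 0.0463). The unadjusted p of Csf1r was 0.0575 without a trend in the variances, 0.0562 without WT replicate 1 and 0.0644 without cKO replicate 2. For Flt1 it was 0.222 without a trend, 0.0914 with quantile normalization, 0.239 without WT replicate 1, 0.110 without cKO replicate 1 and 0.166 without cKO replicate 2.

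The summed normalized counts of the 48 members were 116844 and 107958 in WT and 96310 and 101294 in cKO. Both cKO sums were below both WT sums, as were the totals over all genes. Angptl4 had the highest WT mean and Hadha the highest cKO mean. Group means were 9281 in WT and 5534 in cKO for Pcx, and 9429 and 5989 for Angptl4. Of the 48 members, 21 had a positive and 27 a negative log2 fold change, with a median of -0.05. For the 17 fatty acid oxidation genes the sums were 44732 and 42874 in WT and 37154 and 38144 in cKO, and for the 15 genes of the TCA cycle and glutamate entry they were 40134 and 36302 in WT and 37777 and 38266 in cKO, where both cKO samples lay between the WT samples. Other listed genes with both cKO samples below both WT samples included Aco1, the cytosolic aconitase, at 3557 and 3029 in WT and 1458 and 2646 in cKO. Its unadjusted p was 0.0578 with limma and 0.0313 with DESeq2. Another was Acss1, the mitochondrial acetyl-CoA synthetase, at 811 and 964 in WT and 527 and 505 in cKO. For Acss1 the unadjusted p was 0.0592 with limma and 0.0620 with DESeq2. Both genes were picked after their values were seen. Me2, the mitochondrial malic enzyme, was at 73.3 and 190.4 in WT and 435 and 289.9 in cKO, higher in both cKO samples (unadjusted p = 0.0660), also picked after its values were seen.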
